A study of Rattus norvegicus with 15 samples.

Results

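The respiratory chain genes described here are the nuclear genes of mitochondrial complexes I to V that were measured in rat knee articular cartilage from birth to old age. They were taken by symbol: the Nduf genes of families a, b, c, s and v for complex I, Sdha to Sdhd for complex II, the Uqcr genes and Cyc1 for complex III, Cox4 to Cox8 for complex IV and the Atp5 genes for complex V. Only probe sets with a single gene symbol were used, and where a gene had several, the one with the highest mean over all arrays stood for it. This gave 91 of the 18166 genes measured, with 39 in complex I, 4 in complex II, 10 in complex III, 18 in complex IV and 20 in complex V. By role they were 17 core subunits, 48 accessory subunits, 6 tissue-restricted or stage-restricted isoforms, 16 copies and pseudogenes, and 4 associated proteins. The symbols alone chose the genes, and Ndufa4, named for complex I, is counted there although it is now known as a subunit of complex IV. A mean log2 signal of at least 5 over all arrays, the level used below to mark brighter genes, was reached by 81 of the 91.

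The respiratory chain sits in the inner mitochondrial membrane. Complexes I and II pass electrons from NADH and succinate to ubiquinone, complex III passes them on to cytochrome c, and complex IV hands them to oxygen. Complexes I, III and IV pump protons, and complex V, the ATP synthase, uses the proton gradient to make ATP. Most subunits are encoded in the nucleus and imported, while a few, among them the catalytic subunits of complex IV, are encoded in mitochondrial DNA. Chondrocytes live in a tissue without blood vessels and make much of their ATP by glycolysis.

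Cartilage came from the right knee of Sprague-Dawley rats at 5 stages. T0 stands for newborn rats, T1 for youth, T2 for the adult stage, T3 for the early-stage elderly and T4 for the latter-stage elderly. Each stage had 3 arrays, labelled as biological replicates of cartilage harvested individually. No treatment or genotype is given, all rats carry the same strain label, and the labels name neither ages nor sexes. The series follows expression over these stages, and each value is a log2 signal of total RNA on an Affymetrix RaGene 2.0 ST array.

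Several facts of the whole set of arrays bear on the chain genes. The spread of log2 signals over all probe sets was 2.00 to 2.05 (SD) on the arrays of T0 to T2, 1.83 to 1.97 at T3 and 1.48 to 1.71 at T4, so the T4 arrays had a compressed range. T4 replicate 1 stood apart, with a mean correlation of 0.529 with the arrays of T0 to T2, against 0.833 and 0.780 for the other T4 arrays. The main results that rest on T4 are therefore given with and without it. T1 replicate 3 is labelled adult in its source name and youth in its other labels, and was kept as youth. The cartilage marker Col2a1, the gene of type II collagen, was bright at the early stages, with a mean of 12.36 at T0 and 11.91 at T2, and lay between 7.10 and 9.70 on the T4 arrays. Genes of other tissues were present as well: skeletal muscle markers were bright at T0, and erythroid and myeloid markers rose at T1. In such bulk tissue, fewer cells of a type and less RNA per cell cannot be told apart. Signals of different probe sets cannot be compared as levels, so each gene is compared with itself across arrays, and for the isoform pairs the difference within each array is compared across stages.

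The promoter sequences of 6 genes introduce the members on which the results turn. Cox6a2 and Cox8b are the heart and skeletal muscle isoforms of complex IV subunits 6A and 8, and Cox8a is the widely expressed partner of Cox8b. Sdhb, the iron-sulfur subunit of complex II, and Uqcrc2, a large matrix subunit of complex III, stand for the widely expressed subunits, and Ndufa11, an accessory subunit of complex I, for promoters with an NRF1 motif. Each run is the 150 bases before the RefSeq start site (build GRCr8), printed 5′ to 3′ on the strand of the gene. Capitals mark the motifs CCGGAAG (GABP or other ETS factors) in Cox8a, Sdhb and Uqcrc2, GCGCATGCG (NRF1) in Ndufa11, and CAGCTG (an E-box bound by MyoD) in the muscle isoforms. All were searched on both strands, so that CTTCCGG is CCGGAAG read on the other strand, and in Ndufa11 overlapping matches run together.
Cox6a2: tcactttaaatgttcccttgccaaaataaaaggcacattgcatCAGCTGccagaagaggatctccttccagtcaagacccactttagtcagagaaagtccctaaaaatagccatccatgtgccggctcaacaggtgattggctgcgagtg
Cox8b: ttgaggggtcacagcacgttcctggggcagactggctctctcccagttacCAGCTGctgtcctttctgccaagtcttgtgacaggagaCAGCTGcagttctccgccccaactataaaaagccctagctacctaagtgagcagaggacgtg
Cox8a: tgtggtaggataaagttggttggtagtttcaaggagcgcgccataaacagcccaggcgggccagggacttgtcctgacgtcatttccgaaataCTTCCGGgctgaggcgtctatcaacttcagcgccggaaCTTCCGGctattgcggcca
Sdhb: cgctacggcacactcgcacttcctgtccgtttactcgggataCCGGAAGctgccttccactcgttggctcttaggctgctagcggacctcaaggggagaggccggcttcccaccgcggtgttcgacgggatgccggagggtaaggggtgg
Uqcrc2: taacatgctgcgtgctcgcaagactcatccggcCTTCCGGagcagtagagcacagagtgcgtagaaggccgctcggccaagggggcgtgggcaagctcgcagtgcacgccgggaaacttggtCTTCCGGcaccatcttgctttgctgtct
Ndufa11: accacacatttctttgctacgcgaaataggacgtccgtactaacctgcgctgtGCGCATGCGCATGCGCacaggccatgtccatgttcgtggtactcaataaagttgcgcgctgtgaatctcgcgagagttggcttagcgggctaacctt
These runs lie at chr1:192219717-192219866 on the minus strand for Cox6a2, chr1:205408274-205408423 on the minus strand for Cox8b, chr1:213833624-213833773 on the minus strand for Cox8a, chr5:158547784-158547933 on the plus strand for Sdhb, chr1:184599090-184599239 on the plus strand for Uqcrc2 and chr9:1637464-1637613 on the plus strand for Ndufa11. All 6 genes are protein coding in RefSeq. The runs of Cox6a2 and Sdhb lie within the annotated span of their genes, which begin further upstream, and the others end at the base before the annotated gene.

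Motifs of the factors known to drive nuclear respiratory genes were common in the promoters of the chain subunits. RefSeq windows, which span 250 bases before to 50 after the start, were matched for 73 of the 91 genes and 57 of the 65 core and accessory subunits. At least 1 of 4 motifs (NRF1 GCGCATGCG, GABP CCGGAAG, ERR TCAAGGTCA and YY1 AAGATGGCG) stood in 29 of these 57 subunit windows (50.88%), against 16.36% of the windows of all genes on the array and 12.32% of all rat windows. The GABP motif was in 19 subunit windows (33.33%, against 12.54% of the array's genes), the YY1 motif in 10 (17.54%, against 2.52%), the NRF1 motif in 5 (8.77%, against 2.35%) and the ERR motif in 2 (3.51%, against 0.26%). All windows with any of the 4 motifs belonged to core or accessory subunits, and none to the 7 copies and the other genes with a window. The windows also differed in base composition. The median number of CG steps (a C followed by a G) was 20 in the subunit windows, 4 in the copies and 15 in the array's genes. The part of composition in these motif shares was not tested. The MyoD E-box, by contrast, was in 11 of 73 windows (15.07%), close to the 15.73% of the array's genes, and it was added to the search after the changes of Cox6a2 and Cox8b had been seen. Cox8b held it 2 times within the printed run. A match is only a stretch of letters. The median adult minus newborn change was -0.47 in the 29 subunits with any of the 4 motifs and -0.42 in the 28 without.

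From newborn to adult cartilage, most subunits of the chain stood lower in mean, by less than 1 log2 unit, while the muscle isoforms Cox6a2 and Cox8b fell by far more. The median change over the 91 genes was -0.40 (log2, T2 minus T0), against -0.02 over all 18166 genes. The mean was lower at T2 in 79 of 91 genes. With limma fitted to all probe sets and arrays, 10 genes fell, 11% of the members, which is near the background of 9.56% of all genes that fell (12.5% of genes with a mean of at least 5). None rose, where 9.25% of all genes rose. The arrays of the stages did not overlap, all T2 values below all T0 values, in 54 of 91 genes (59.3%), against a background of 24.1% of all genes and 29.1% of the brighter ones. The count of calls depended on the T4 arrays, which share the estimate of the spread. With those arrays left out of the fit, 28 members fell (30.8%), against 12.3% of all genes and 16.1% of the brighter ones. In that fit 1 member rose, Cox5a, where 12.4% of all genes rose.

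**Figure D1:**
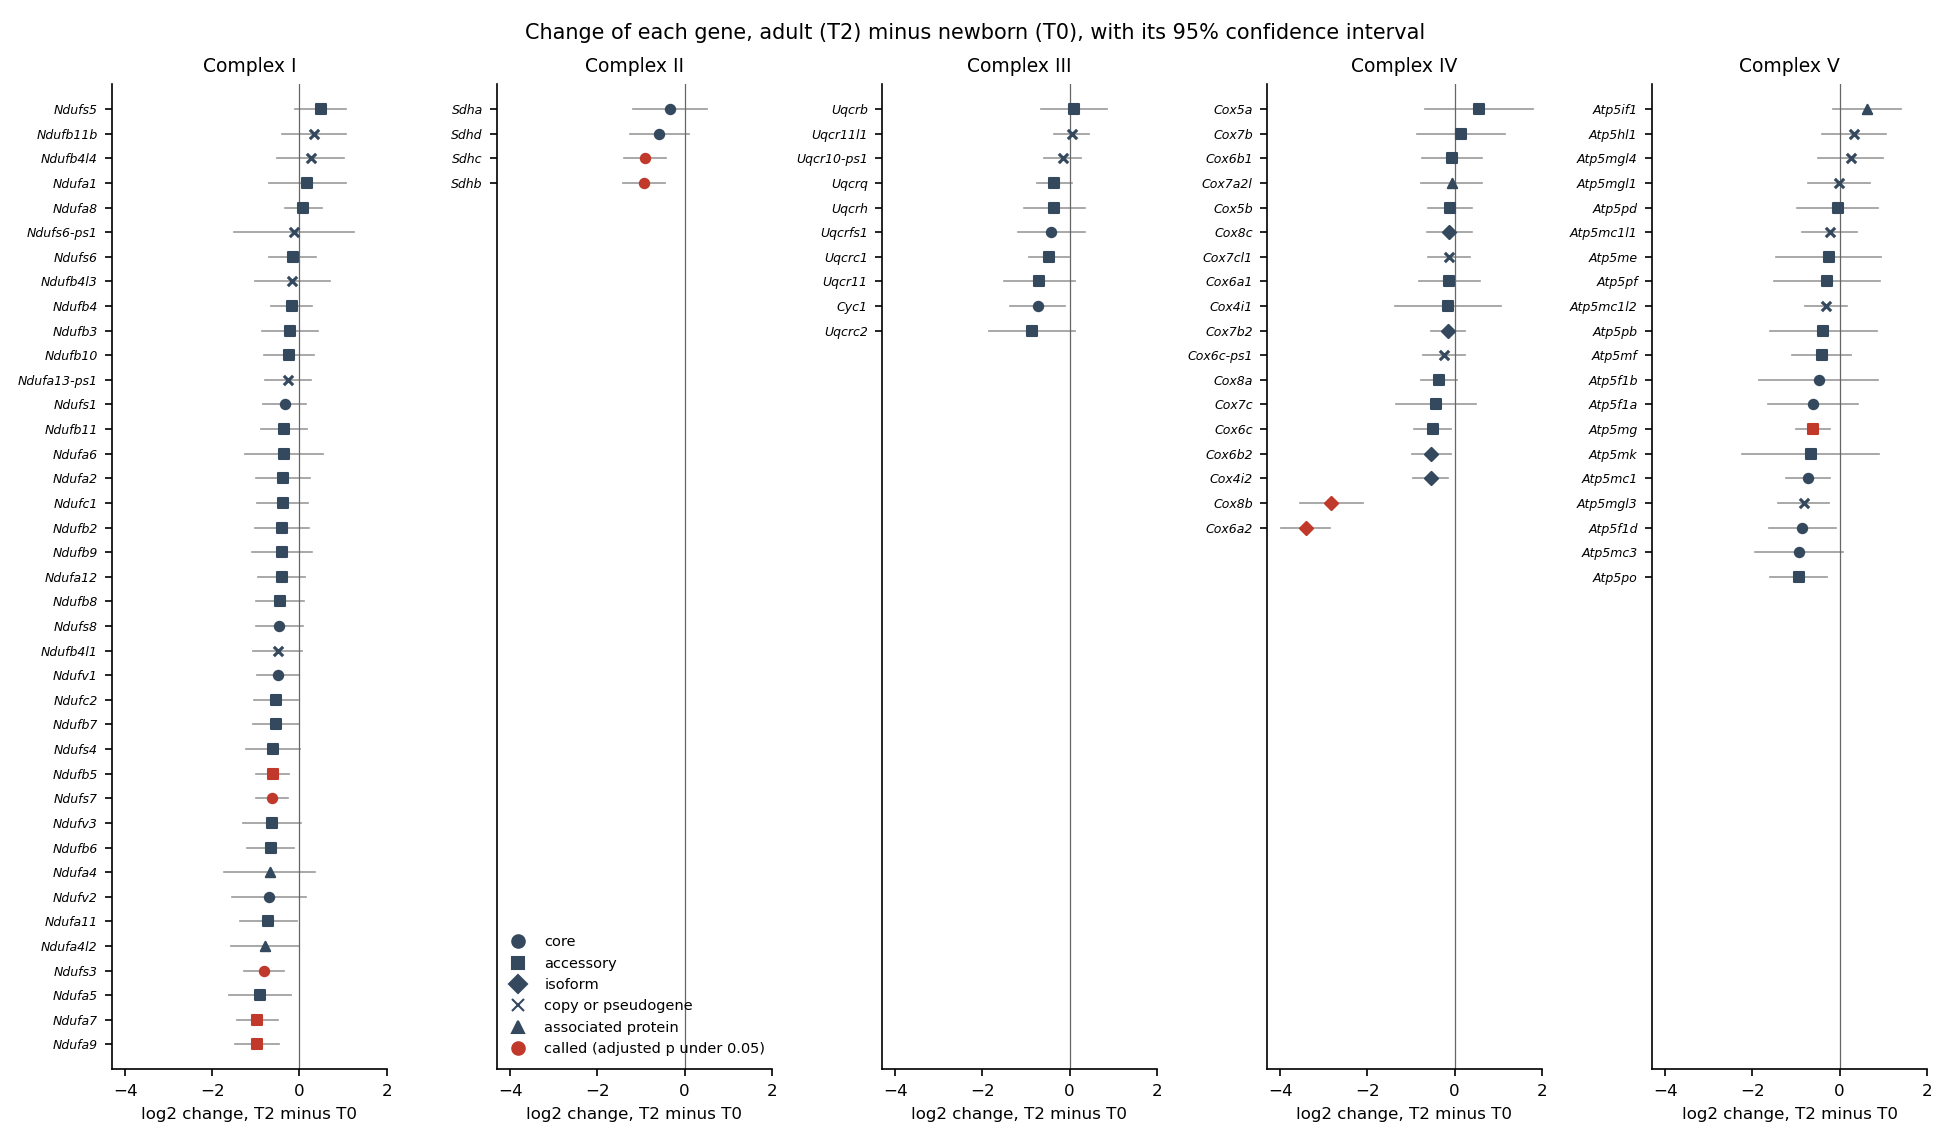
Change of each of the 91 genes on the log2 scale, T2 minus T0 (x axis), in a panel per complex and sorted within it, with symbols for the role of the gene, red for an adjusted p under 0.05 and grey bars for the 95% confidence interval of limma. Cox6a2 and Cox8b lie far left of all others, and 79 of the 91 points lie left of 0.

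Complex II, which also works in the citric acid cycle and has no subunit from mitochondrial DNA, had 2 of its 4 genes called as falls. That is 50% of a small set, where 9.56% of all genes and 12.5% of the brighter ones fell. All 4 had lower T2 than T0 arrays with no overlap, with a median change of -0.74. Such a gap was present in 24.1% of all genes and 29.1% of the brighter ones. Sdhb measured 7.96, 7.64 and 7.73 on the T2 arrays, against 8.70, 8.85 and 8.57 on the T0 arrays. Its change was -0.93 (SE 0.23, limma adjusted p = 0.0123), and the T1 arrays, at 8.13, 8.08 and 8.06, lay between the other stages without overlap. Sdhc, a membrane anchor subunit, measured 7.43, 6.88 and 7.12 at T2, against 8.15, 8.19 and 7.80 at T0, and fell by 0.90 (SE 0.22, limma adjusted p = 0.0124). Sdha, the flavoprotein that oxidises succinate, measured 8.78, 8.51 and 8.59 at T2, against 8.88, 9.19 and 8.81 at T0, a change of -0.33 (SE 0.40, adjusted p = 0.80). Sdhd, the other anchor, measured 7.67, 7.45 and 7.57 at T2, against 8.16, 8.42 and 7.82 at T0, a change of -0.58 (SE 0.32, adjusted p = 0.347). The arrays of these genes too were apart, although neither passed the test. In the fit without the T4 arrays Sdhd was called (limma adjusted p = 0.0447), and 3 of the 4 genes fell (75%). In that fit 12.3% of all genes and 16.1% of the brighter ones fell. Of 25 alternatives run, 3 ended the call of Sdhb, namely quantile normalization and leaving out T0 replicate 2 or T2 replicate 2 (highest adjusted p = 0.0618). The call of Sdhc ended without T0 replicate 1, T0 replicate 2 or T2 replicate 2 (highest adjusted p = 0.0737).

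Complex I, with 39 of the 91 genes, carried 5 of the 10 falls. This is 12.8% of its genes, near the 9.56% of all genes and 12.5% of the brighter ones that fell. Its 31 core and accessory subunits had a median change of -0.45. In 20 of them (64.5%) the T2 arrays lay wholly below the T0 arrays, against 24.1% of all genes and 29.1% of the brighter ones. Ndufa9, an accessory subunit near the junction of the arms, measured 8.05, 7.59 and 7.91 at T2, against 8.76, 9.02 and 8.70 at T0, and fell by 0.97 (SE 0.23, limma adjusted p = 0.0104). Ndufa7 fell by 0.97 as well (SE 0.22, adjusted p = 0.00653), with 7.13, 6.69 and 6.81 at T2, against 7.94, 8.02 and 7.56 at T0. In both genes the lowest T0 array lay above the highest T2 array. Of the core subunits, Ndufs3 measured 6.15, 6.07 and 6.18 at T2, against 6.99, 7.06 and 6.78 at T0 (change -0.82, SE 0.22, adjusted p = 0.0201). Ndufs7, which holds the last iron-sulfur cluster before ubiquinone, measured 7.33, 7.07 and 7.28 at T2, against 7.78, 8.09 and 7.68 at T0 (change -0.62, SE 0.17, adjusted p = 0.0254). Ndufb5, an accessory subunit of the membrane arm, fell by 0.61 (SE 0.18, adjusted p = 0.0315). Of these calls Ndufa7 held under all 25 alternatives, with a highest adjusted p of 0.0402. Ndufa9 lost its call in 2, without T0 replicate 2 or T2 replicate 2 (highest adjusted p = 0.0626). Ndufs3 lost it in 6, with quantile normalization and without T0 replicate 1 or 2 or any T2 array (highest 0.109). Ndufs7 lost it in 4, without T0 replicate 1 or 2 or T2 replicate 2 or 3 (highest 0.146), and Ndufb5 without the same arrays and with the replicate number as a block (highest 0.156). Ndufv1, the subunit that takes electrons from NADH, changed by -0.50 (SE 0.23, adjusted p = 0.22), and Ndufs1, the largest core subunit, by -0.34 (SE 0.23, adjusted p = 0.51). Ndufs5, a small accessory subunit, went the other way without passing the test, with 8.12, 7.81 and 7.83 at T2, against 7.30, 7.67 and 7.34 at T0 (change 0.48, SE 0.27, adjusted p = 0.37).

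In complex III no gene passed the test, although 7 of the 8 core and accessory subunits (87.5%) had T2 arrays wholly below the T0 arrays. The same held for 24.1% of all genes and 29.1% of the brighter ones. Uqcrc2 measured 8.48, 8.47 and 8.41 at T2, against 9.29, 9.47 and 9.17 at T0 (change -0.86, SE 0.46, adjusted p = 0.335). Cyc1, the cytochrome c1 heme protein, changed by -0.73 (SE 0.30, adjusted p = 0.15), and Uqcrfs1, the Rieske iron-sulfur protein, by -0.42 (SE 0.36, adjusted p = 0.65). Both Uqcrc2 and Cyc1 were called once the T4 arrays were left out, with adjusted p-values of 0.00441 and 0.00749. Uqcrc2 ranged from 4.54 to 7.12 over the T4 arrays, and that spread enters its standard error.

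In the ATP synthase all 13 core and accessory subunits had a lower mean at T2, by as little as 0.04 on the log2 scale in Atp5pd. Their median change was -0.60. In 11 of 13 (84.6%) the T2 arrays lay wholly below the T0 arrays, against 24.1% of all genes and 29.1% of the brighter ones. But 1 of 13 passed the test (7.69%), near the 9.56% of all genes and under the 12.5% of the brighter ones that fell. Atp5mg, the g subunit of the membrane part, was the single gene called, with 7.03, 6.95 and 6.93 at T2, against 7.73, 7.68 and 7.32 at T0 (change -0.61, SE 0.18, adjusted p = 0.0417). That call ended in 9 of 25 alternatives, with quantile normalization and without T0 replicate 1 or 2 or any T1 or T2 array (highest adjusted p = 0.165). Atp5f1a, the alpha subunit of the catalytic head, measured 9.76, 9.70 and 9.64 at T2, against 10.37, 10.46 and 10.09 at T0 (change -0.60, SE 0.48, adjusted p = 0.60). Atp5f1b, the catalytic beta subunit, measured 10.29, 10.33 and 10.30 at T2, against 10.76, 10.96 and 10.64 at T0 (change -0.48, SE 0.64, adjusted p = 0.83). Neither passed the test, and in each the T2 arrays lay below all T0 arrays. In the fit without the T4 arrays 7 of the 20 complex V genes fell (35%) over T2 minus T0, and none rose. In that fit 12.3% of all genes and 16.1% of the brighter ones fell. Atp5f1a was among the 7 (limma adjusted p = 0.0123). Atp5if1, the inhibitor that stops the enzyme from running backwards, was higher at T2, with 8.76, 8.74 and 9.02, against 8.23, 8.37 and 8.04 at T0 (change 0.63, SE 0.36, adjusted p = 0.38). It was already high at T1, with 9.09, 8.92 and 8.88, and its change from T0 to T1 was called in the fit without the T4 arrays (0.75, adjusted p = 0.0336). Erythroid markers rose at the same step in 7 of 7 genes, by a median of 5.30, and their part in the result was not tested.

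No common subunit of complex IV that was measured here passed the test. Its 9 accessory subunits had a median change of -0.12, and 7 of them had a lower mean at T2. In 2 (22.2%) the T2 arrays lay wholly below the T0 arrays, near the 24.1% of all genes. Ndufa4, counted with complex I by its name, is not among these 9, and Cox7a2 was left out because its probe sets hold several symbols. Ndufa4 changed by -0.68 and was called only in the limma fit without the T4 arrays (adjusted p = 0.0145). Cox5a, a subunit beside the mitochondrially encoded core, was higher at T2, with 9.88, 10.12 and 9.79, against 9.26, 9.64 and 9.21 at T0 (change 0.56, SE 0.57, adjusted p = 0.73). It did not pass that test and was called in the fit without the T4 arrays (adjusted p = 0.0364). Cox4i1, the common form of subunit 4, was at 8.31, 8.64 and 8.48 at T2 and at 8.65, 8.77 and 8.46 at T0, so its arrays overlapped (change -0.15, SE 0.57, adjusted p = 0.96). Differences between complexes in the size of these changes were not tested.

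**Figure D2:**
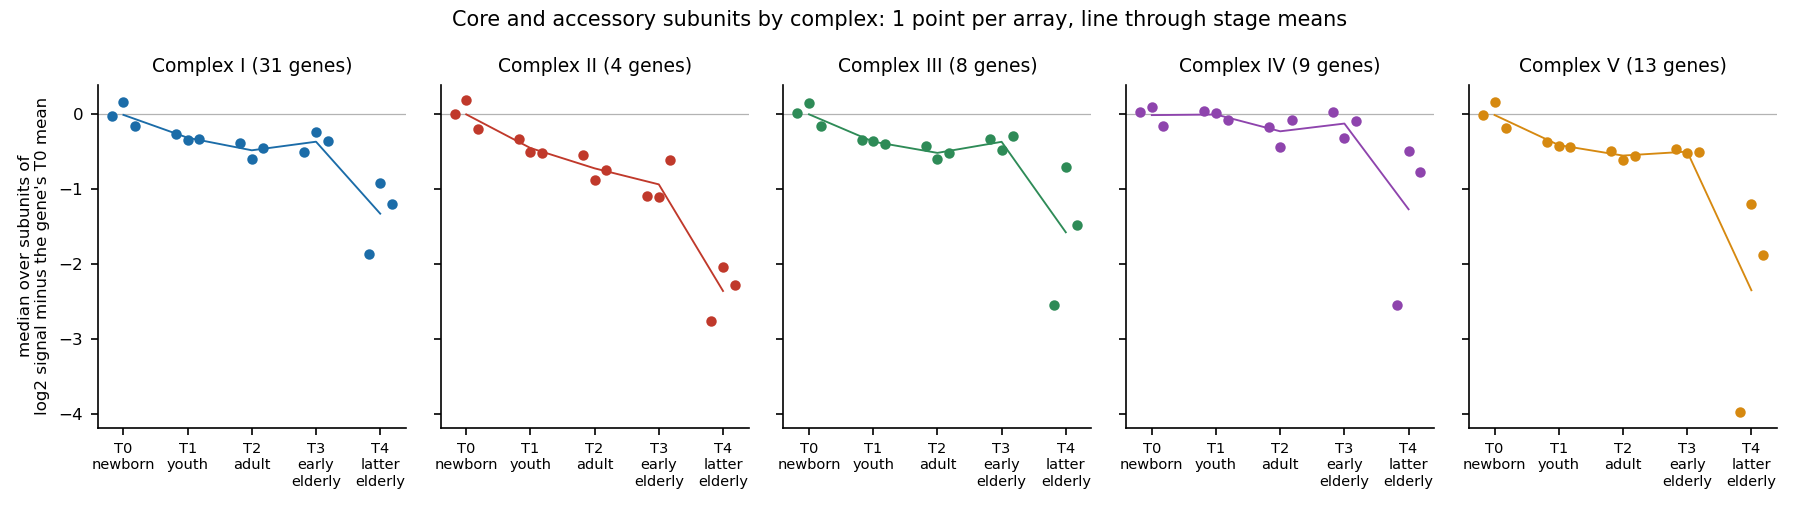
Core and accessory subunits of each complex by array: the median over subunits of the log2 signal minus the gene's own mean at T0 (y axis) against stage (x axis), with 1 point per array and a line through the stage means. The T1 to T3 arrays lie below the T0 arrays in complexes I, II, III and V, the complex IV points lie between -0.44 and 0.10 up to T3, and T4 replicate 1 lies lowest in every panel.

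The muscle isoforms of complex IV showed the largest adult minus newborn changes among the 91 genes. Cox6a2 measured 9.13, 8.85 and 8.34 at T0, 7.32, 7.74 and 7.05 at T1, 5.32, 5.21 and 5.54 at T2, 5.82, 6.18 and 5.62 at T3, and 5.91, 6.58 and 6.47 at T4. No T0 array overlapped with a T1 array, and no T1 array with a T2 array. The gene fell by 1.40 at T1 against T0 (SE 0.26, limma adjusted p = 0.00311) and by 2.01 at T2 against T1 (adjusted p = 0.00186). Over the span T2 minus T0 it was 10.7-fold lower (log2 change -3.41, adjusted p = 8.02e-07). Cox8b measured 7.20, 7.73 and 6.91 at T0, 5.76, 6.01 and 5.51 at T1, 4.61, 4.59 and 4.16 at T2, 4.71, 4.69 and 5.24 at T3, and 4.61, 5.88 and 4.54 at T4. It fell by 1.52 at T1 against T0 (SE 0.33, adjusted p = 0.00976), changed by -1.30 at T2 against T1 (adjusted p = 0.10), and was 7.1-fold lower over T2 minus T0 (adjusted p = 3.55e-05). At T2 its signal lay under the level of 5 that marks brighter genes. Both falls over T2 minus T0 held under all 25 alternatives. The steps of Cox6a2 at T1 were no longer called with T1 replicate 3 placed with T2 (adjusted p = 0.178 and 0.593), and the T1 fall of Cox8b was not called with quantile normalization, with that placement, or without T0 replicate 2 or T1 replicate 3 (highest adjusted p = 0.0917).

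Their widely expressed partners were not called over the same span. Cox6a1 measured 9.91, 9.35 and 9.78 at T2, against 9.84, 9.81 and 9.76 at T0, and Cox8a measured 9.10, 8.63 and 8.99 at T2, against 9.35, 9.37 and 9.09 at T0. The difference between Cox6a2 and Cox6a1, taken within each array, was lower at T2 than at T0 by 3.29 (SE 0.29, 95% confidence interval -3.92 to -2.67, limma adjusted p = 2.65e-06). For Cox8b and Cox8a that difference fell by 2.47 (SE 0.32, interval -3.15 to -1.78, adjusted p = 8.39e-05). Cox4i2, the form of subunit 4 known from lung and from low oxygen, did not pass this test against Cox4i1 (difference -0.40, SE 0.51, adjusted p = 0.82). Ndufa4l2, a paralogue induced by hypoxia in several cell types, measured 7.10, 6.33 and 7.32 at T2, against 8.25, 7.65 and 7.23 at T0, and its arrays overlapped. Its difference from Ndufa4, now known as a subunit of complex IV, was -0.11 (SE 0.70, adjusted p = 0.98). The Cox7a1 and Cox7a2 pair was not analysed here.

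**Figure D3:**
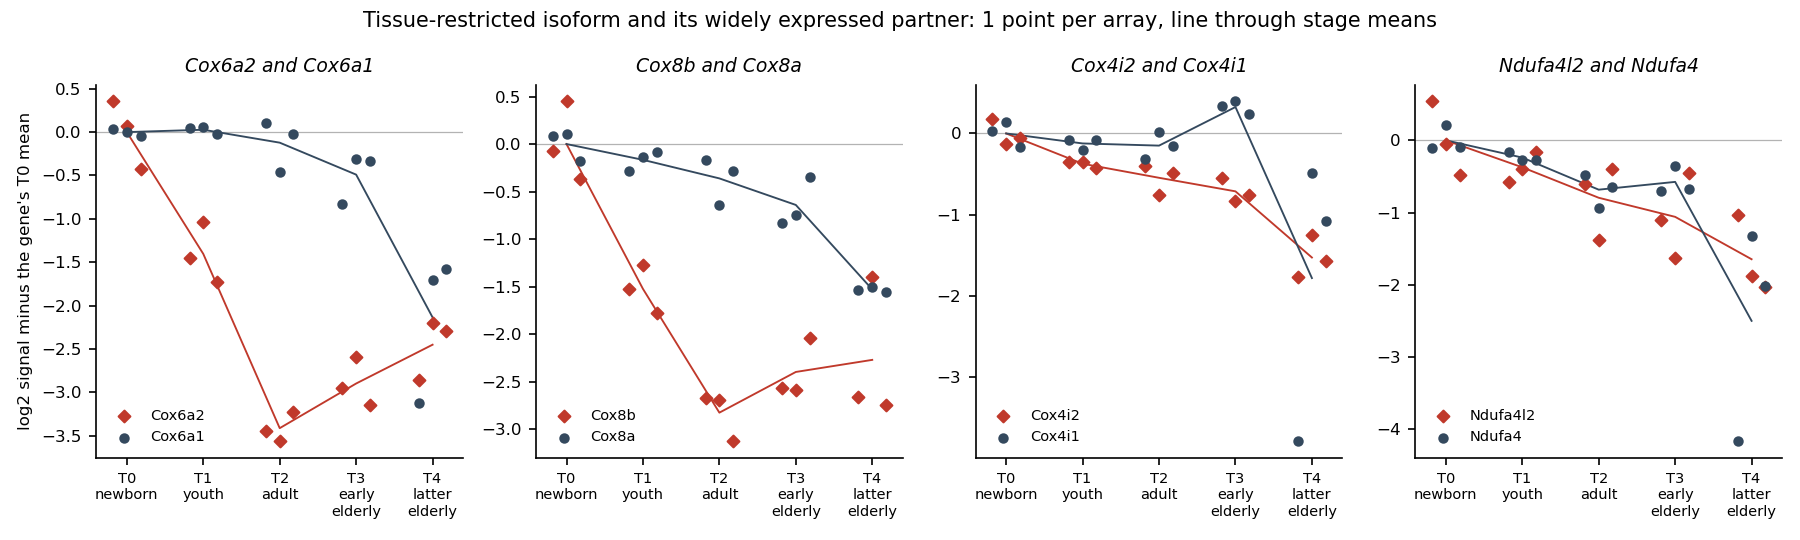
Restricted isoforms (red diamonds) and their widely expressed partners (dark circles) by array, as the log2 signal minus the gene's own mean at T0 (y axis) against stage (x axis), with lines through stage means and a y axis set for each panel. Cox6a2 and Cox8b drop at T1 and again at T2 while Cox6a1 and Cox8a stay within 0.64 of their T0 mean up to T2, and the differences of the other 2 pairs, -0.40 and -0.11 at T2 against T0, did not pass the test.

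Skeletal muscle markers moved with these isoforms. All 16 measured muscle markers fell from T0 to T2, with a median change of -5.74, and the median steps were -2.07 at T1 against T0 and -3.34 at T2 against T1. The summed linear signal of the list was 525.28 to 632.65 on the T2 arrays and 4358.1 to 8667.5 on the T1 arrays, against 23857 to 34061 on the T0 arrays. Ckm, the muscle creatine kinase, had a mean of 5.78 at T2, against 11.08 at T0, and Acta1, skeletal muscle actin, 5.29 at T2, against 11.18 at T0. An array reports a background signal for every probe set, so no marker reads 0. The share of muscle RNA in the falls of Cox6a2, Cox8b and the other subunits was not tested. Of 16 cartilage markers 10 fell and 2 rose, and myeloid markers rose in 10 of 12, by a median of 5.30. Marker lists of several tissues thus differed between T0 and T2, and a change in the mixture of tissues was not tested.

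The steps within this span showed that much of the difference was present at youth. At T1 against T0, 77 of 91 chain genes had a lower mean, with a median of -0.29, and 47 (51.6%) had T1 arrays wholly below the T0 arrays, against 21.6% of all genes. Cox6a2 and Cox8b were the only calls among the 91, where 4.93% of all genes fell, and without the T4 arrays 7 members fell and 1 rose, where 6.82% of all genes fell and 8.98% rose. Those 7 were Cox8b, Cox6a2, Atp5mc3, Ndufs3, Atp5po, Ndufa9 and Sdhb, all of which also fell over T2 minus T0 in that fit, a comparison that shares the T0 arrays. At T2 against T1 the median was -0.16, Cox6a2 was the only call (0.633% of all genes fell), and 28 genes (30.8%) had T2 arrays wholly below the T1 arrays, against 13.9% of all genes. All 17 core subunits had a lower mean at each of these steps.

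Between adult and early-stage elderly cartilage no chain gene was called, and part of the accessory subunits stood higher. None passed the test by limma at T3 against T2, where 0.138% of all genes were called. The median change was 0.09, against -0.16 for all genes with a mean of at least 5. It was 0.21 with quantile normalization and 0.26 with cyclic loess (-0.08 and -0.06 for the brighter genes), and 0.04 to 0.13 on leaving out each array. In 20 of the 91 genes the T3 arrays lay wholly above the T2 arrays (13.4% of all genes and 8.38% of the brighter ones did), and 14 of these were accessory subunits, out of 48, while none of the 17 core subunits did. Without the T4 arrays in the fit 5 accessory subunits rose, where 1.39% of all genes rose: Atp5me (1.17, adjusted p = 0.03), Uqcrq (0.79, adjusted p = 0.0377), Ndufa5 (0.78, adjusted p = 0.0498), Ndufa6 (0.70, adjusted p = 0.0382) and Atp5mg (0.68, adjusted p = 0.0376). Atp5me, the e subunit of the ATP synthase, measured 9.41, 9.47 and 8.75 at T3, against 7.81, 8.36 and 7.97 at T2. Uqcrq, a small subunit of complex III, measured 8.20, 8.34 and 7.74 at T3, against 7.18, 7.39 and 7.35 at T2. In both, the third T3 array was the lowest of its stage and still lay above T2. The narrower spread of signals at T3 moves with these values, and its part was not tested.

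**Figure D4:**
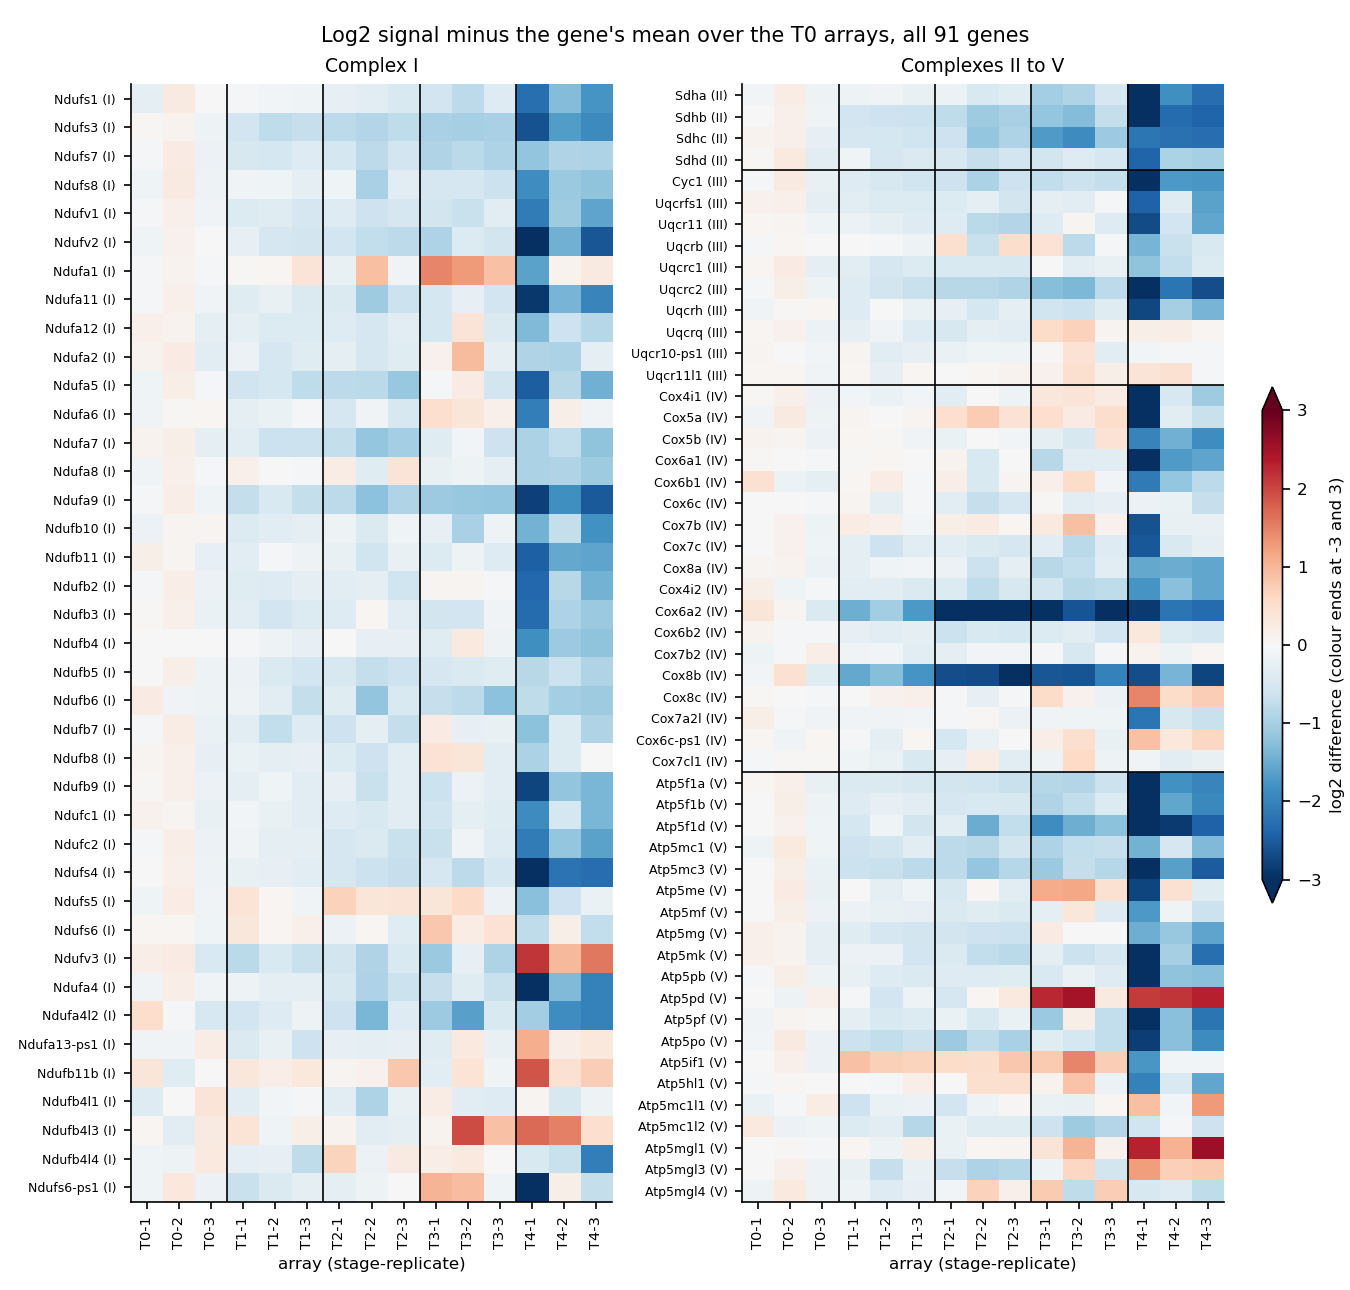
All 91 genes (rows, grouped by complex and role, with the complex in brackets) on the 15 arrays (columns), coloured by the log2 signal minus the gene's mean over the T0 arrays, with colour ending at -3 and 3. The rows of Cox6a2 and Cox8b are blue from T1 on, most other rows are pale blue from T1 to T3, and T4 replicate 1 is the darkest column while a few rows, among them Atp5pd and Ndufv3, are red at T4.

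At the last stage most chain genes were lower, along with most bright genes of the array. At T4 against T3, 59 of 91 members fell and 6 rose, against a background of 32.3% of all genes that fell and 14% that rose. Among the 81 members with a mean of at least 5, 58 fell (71.6%), against 47.6% of all genes of that brightness. At T4 against T2, 49 fell and 11 rose, where 38.4% of all genes fell and 25% rose. Of the 81 brighter members 47 fell (58%), near the 56.9% of all brighter genes, so this comparison gives no result about the chain. Without T4 replicate 1, 47 members fell and 2 rose against T3, where 27.7% of all genes fell and 8.13% rose, and 45 fell and 8 rose against T2, where 37.9% fell and 18.6% rose. Of the 81 brighter members 46 then fell against T3 (56.8%, against 40.7% of all brighter genes) and 44 against T2 (54.3%, against 55.9%).

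The direction at T4 also turned with the scaling of the arrays. The median change of the members at T4 against T2 was -0.95 as deposited, -0.34 after quantile normalization and 0.22 after cyclic loess, while the median of the brighter genes was -0.81, -0.49 and -0.12 under the same settings. The calls against T2 were then 20 falls and 13 rises with quantile normalization, and 8 falls and 24 rises with cyclic loess. Against T3 they were 22 falls and 10 rises, and 8 falls and 11 rises. The median of all genes moved by over 0.1 at T4 against T3, where it was -0.15 as deposited and 7e-04 after cyclic loess. Over T2 minus T0 the median of the members stayed negative under these scalings, at -0.38 and -0.46.

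The genes with large T4 falls show how far T4 replicate 1 decided the values. Atp5f1b measured 5.59, 9.23 and 8.85 at T4, against 9.88, 10.04 and 10.38 at T3 and 10.29, 10.33 and 10.30 at T2. All T4 arrays lay below the others, and the first was far below its own stage. Its change at T4 against T2 was -2.42 (SE 0.64, limma adjusted p = 0.00564), and -1.27 without that array. The call ended with quantile normalization (adjusted p = 0.0582), with cyclic loess (0.204) and with only the arrays of these stages. Atp5mk, a small membrane subunit of the synthase, measured 4.66, 9.12 and 7.87 at T4, against 9.69, 9.39 and 9.30 at T2, with a change of -2.25 that became -0.97 without it and was not called with quantile normalization, cyclic loess, only the arrays of these stages or without T2 replicate 1. Sdhb was less dependent on that array, with 5.59, 6.39 and 6.31 at T4, against 7.96, 7.64 and 7.73 at T2 (change -1.68, adjusted p = 8.02e-05, and -1.43 without that array). After cyclic loess its change was -0.16 and the call ended (adjusted p = 0.429). Cox8a was even across the T4 arrays, at 7.73, 7.77 and 7.72, against 9.10, 8.63 and 8.99 at T2 (change -1.17, adjusted p = 0.000241, and -1.16 without that array). The T4 fall of Cox8a was not called with quantile normalization (adjusted p = 0.953) and reversed to 0.72 after cyclic loess.

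Some members were higher at T4. Atp5pd, the d subunit of the peripheral stalk of the ATP synthase, measured 8.88, 8.94 and 9.10 at T4, against 6.28, 6.85 and 7.08 at T2, a rise of 2.23 (SE 0.43, limma adjusted p = 0.000806), and of 2.28 without T4 replicate 1. It measured 9.03, 9.28 and 7.05 at T3, where the third array lay within the T2 range. Ndufv3, a small subunit of the NADH module of complex I, measured 9.09, 7.91 and 8.54 at T4, against 6.39, 6.04 and 6.48 at T2, a rise of 2.21 (SE 0.31, adjusted p = 9.77e-05), and of 1.92 without that array. Its other probe set fell by 0.81 (adjusted p = 0.00399), and by 0.98 without that array, so the probe sets of this gene disagree in direction. Of the 16 copies and pseudogenes 6 rose at T4 against T2 and 2 fell, with a median of 0.26, where 25% of all genes rose, and 4 rose and 2 fell without T4 replicate 1. Dim genes often rose at this comparison, 49.5% of those with a mean under 5, and 7 of the 16 copies are that dim. Without T4 replicate 1, 3 of the 9 brighter copies rose (33.3%, against 9.26% of all brighter genes) and 1 fell. Of the 7 dim copies 1 then rose (14.3%, against 36.3% of all dim genes) and 1 fell. The difference of the copies from the subunits was not tested. Atp5mgl1 rose by 1.99 (SE 0.33, adjusted p = 0.000281) and Atp5mgl3 by 1.74 (SE 0.27, adjusted p = 0.000178), or by 1.82 and 1.57 without that array. Signals of a copy and of its parent gene may not be separable where their sequences are alike, which was not examined here. Cox8c, known from testis, rose by 1.04 (SE 0.24, adjusted p = 0.00235) to 4.98, 4.08 and 4.26 at T4, against 3.46, 3.27 and 3.47 at T2. That rise was 0.77 without T4 replicate 1, and was not called after cyclic loess (adjusted p = 0.0541). Cox6a2 rose as well, by 0.96 (SE 0.26, adjusted p = 0.00689), to 5.91, 6.58 and 6.47 at T4, against 5.32, 5.21 and 5.54 at T2. Without that array the rise was 1.17, and it was not called with T1 replicate 3 placed with T2 (adjusted p = 0.235). The summed linear signal of the muscle markers was 874.84 to 2466.1 on the T4 arrays, against 525.28 to 632.65 on the T2 arrays, and its part in this rise was not tested. Olfactory receptor genes, which serve here as genes without a known role in cartilage, had a median change of 0.84 at the same comparison, and of 0.60 without T4 replicate 1.

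**Figure D5:**
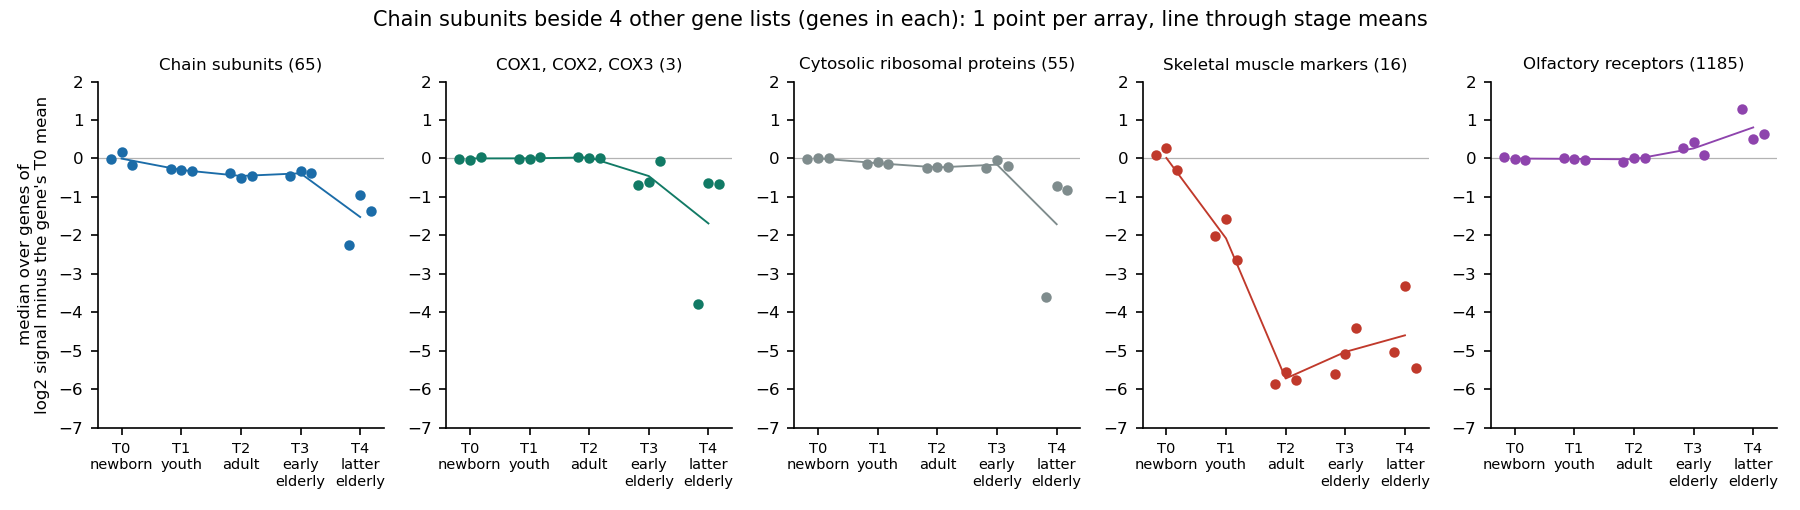
The 65 core and accessory subunits beside 4 other lists by array, as the median over genes of the log2 signal minus the gene's own mean at T0 (y axis) against stage (x axis), with 1 point per array. The muscle markers drop from T0 to T2, COX1 to COX3 and the ribosomal proteins lie between -0.24 and 0.04 up to T2, the olfactory receptors rise at T4, and T4 replicate 1 is the lowest T4 point of the subunits, COX1 to COX3 and ribosomal proteins.

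The complex IV transcripts of mitochondrial DNA were not called over the early stages. COX1, the catalytic subunit, measured 13.08, 13.03 and 13.03 at T2, against 13.03, 13.02 and 13.09 at T0 (SE of the change 0.62). With 11 to 15 probe sets of the array brighter than it at T0 to T2, its signal lay near the top of the range, where RMA values do not show whether a probe is saturated. None of COX1, COX2 and COX3 was called over T2 minus T0, where their median was 0.03 and 1 of the 3 had T2 arrays wholly above the T0 arrays. With that SE, the missing calls do not show that the transcripts were level. At T3 against T2 the median was -0.50, with 2 of 3 apart and none called. At T4 all 3 fell against T2, by a median of 1.72, with COX1 at 9.06, 12.42 and 12.34, so that T4 replicate 1 again lay far below. Without that array 2 of the 3 fell, with a median of -0.67.

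Genes that build, feed and regulate the chain were read from lists for the same span, T2 minus T0, over which 9.56% of all genes and 12.5% of the brighter ones fell. Among citric acid cycle and pyruvate dehydrogenase genes 4 of 17 fell (23.5%), with a median of -0.60: Dlat, of the pyruvate dehydrogenase complex, by 0.88 (adjusted p = 0.00317), Idh2 by 1.36 (adjusted p = 0.00807), Idh3a by 1.06 (adjusted p = 0.0195) and Idh3b by 0.91 (adjusted p = 0.0385). Among electron carriers and shuttles 4 of 19 fell (21.1%), with a median of -0.26. Slc25a4, the ADP and ATP carrier typical of heart and muscle, fell by 2.03 (adjusted p = 0.000346), Coq8a of coenzyme Q synthesis by 1.64 (adjusted p = 0.0019) and Etfdh by 0.97 (adjusted p = 0.00363). In fatty acid oxidation 2 of 16 fell, 12.5% and so near that background: Cpt1b, the muscle form of the carnitine transferase, by 2.94 (adjusted p = 9.71e-07) and Acaa2 by 1.02 (adjusted p = 0.0456). Muscle markers fell over the same arrays, and their part in these falls was not tested.

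Assembly factors were called in shares near or under those of all genes, of which 9.56% fell and 9.25% rose over T2 minus T0. Of 12 for complex I Ndufaf5 alone fell (8.33%), by 0.75 (adjusted p = 0.0435), with a list median of -0.20. Of 22 for the other complexes Cox17, a copper chaperone of complex IV, rose by 1.47 (adjusted p = 0.00087). Tmem70 of the same list fell by 0.82 (adjusted p = 0.0223), so that 4.55% rose and 4.55% fell, with a median of 0.02. Mitochondrial ribosomal proteins had a median of -0.14 with 1 rise among 69 (1.45%), and cytosolic ribosomal proteins a median of -0.23 with 1 fall among 55 (1.82%). The cytosolic ribosomal proteins also had T2 arrays wholly below the T0 arrays in 32 of 55 genes (58.2%, against 24.1% of all genes). That share is close to the one of the chain genes.

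Of the regulators, Ppargc1a, the coactivator that drives mitochondrial biogenesis in muscle and brown fat, measured 4.26, 3.85 and 3.86 at T2 and 3.93, 4.61 and 4.21 at T1, against 6.50, 6.71 and 6.04 at T0. It fell by 2.16 at T1 against T0 (SE 0.25, limma adjusted p = 7.97e-05) and by 2.43 over T2 minus T0 (adjusted p = 1.13e-05). At T1 and T2 its signal lay under the level of 5, where dim signals limit the size of a fall. Muscle markers fell in 13 of 16 genes at T1 against T0 and in 16 of 16 over T2 minus T0, and their part was not tested. Perm1, a regulator known from striated muscle, fell by 1.24 (adjusted p = 0.000138). Of the factors whose motifs were searched, Nrf1 changed by 0.47 (adjusted p = 0.47), Gabpa by -0.05 (adjusted p = 0.97), Esrra by 0.16 (adjusted p = 0.81) and Yy1 by 0.62 (adjusted p = 0.207), and none of these passed the test over this span. MyoD was not among the regulators read here. The mitochondrial transcription factor Tfam changed by -0.34 (adjusted p = 0.61). Ucp1, the uncoupling protein of brown fat, was at 3.30 at T2 and 3.35 at T0. Over all 5 stages, limma's F test called 73 of the 91 chain genes, where 67.9% of all genes and 77.5% of the brighter ones were called. The smallest p-values per complex were those of Ndufa9, Sdhb, Cyc1, Cox6a2 and Atp5f1d, the delta subunit of the synthase.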

How the data were processed

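The deposited table holds log2 signals of 36685 probe sets on 15 arrays, and the submitters' processing notes name RMA as its method. Its settings, software version and build were not given in the sources used here. Total RNA was extracted with Trizol, per the labels' protocols. Genes were named from the platform annotation, and 8 probe sets of the chain with several symbols were left out. The genes, the lists and the roles were chosen with earlier results of these data known, so they are no independent evidence.

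With limma 3.58.1 (R 4.3.3), stage means were estimated for every probe set over all arrays, with lmFit and eBayes, and p-values were adjusted by Benjamini-Hochberg over all probe sets. A call is an adjusted p under 0.05. Values in every array are given for the up to 6 largest called rises and falls per comparison, the smallest F-test p per complex, the isoform pairs and the catalytic subunits, and a few others were added after their values were seen. Comparisons were T1 against T0, T2 against T1, T3 against T2, T4 against T3, T2 against T0 and T4 against T2. Those that share a stage share its arrays. With 3 arrays per stage, their number limits the precision. The labels call the arrays biological replicates, but do not say whether tissue was pooled. No scan dates or batches were given. Alternatives covered scaling, array weights, the arrays in the fit, a dim-signal filter at a mean of 5, the prior variance, the choice of probe set, a replicate block and leaving out each array. The fit was tested on simulated data in which each probe set had 1 spread for all arrays. That setting does not cover the wider scatter of the T4 arrays. Promoter windows came from RefSeq (GRCr8).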

Additional observations from a re-analysis of the deposited data

How the results depend on the processing

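The falls of Cox6a2 and Cox8b relative to their partners kept direction and call under every alternative run, with -3.49 to -3.13 for Cox6a2 and -2.67 to -2.28 for Cox8b on leaving out each array. The number of chain genes called moved far more. Over T2 minus T0 the main count of 10 became 26 with cyclic loess, 38 with array weights, 30 with only the arrays of these stages and 29 without the T4 arrays, and ranged from 3 (without T0 replicate 2) to 27 (without T4 replicate 1). At T1 against T0 the 2 calls became 1 with quantile normalization, 6 with cyclic loess, 23 with array weights, 11 with only the arrays compared, 8 without the T4 arrays, and 0 with T1 replicate 3 placed with T2 or with only canonical subunits (an alternative added after seeing the data), and ranged from 1 to 6 on leaving out an array. At T2 against T1 the single call became 2 with array weights, with only the arrays compared and without the T4 arrays, and 0 with T1 replicate 3 placed with T2 or with only canonical subunits, with a range of 1 to 2. At T3 against T2 the count of 0 became 23 with array weights (17 rose and 6 fell) and 5 without the T4 arrays, with a range of 0 to 6. At T4 against T3 the 65 calls became 32 with quantile normalization, 19 with cyclic loess and 6 with only the arrays compared, with a range of 49 to 68. At T4 against T2 the 60 calls became 33 with quantile normalization and 32 with cyclic loess, with a range of 53 to 68. The F test called 73, which became 30 with quantile normalization, 47 with cyclic loess and 31 without the T4 arrays, with a range of 61 to 76. Causes of these moves were not tested.

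Cyclic loess turned the sign at T4 against T3 for Atp5f1d (0.0371), Cox6a1 (0.0711), Cox8a (0.7022), Ndufa9 (0.0228), Ndufv1 (0.1724) and Col2a1 (0.3253), and at T4 against T2 for Cox4i1 (0.1328), Cox4i2 (0.0349), Cox8a (0.7161), Cyc1 (0.2671), Ndufa9 (0.1714) and Ndufv1 (0.4365). Quantile normalization turned Cox8a at T4 against T3 (0.0158). The difference between Ndufa4l2 and Ndufa4, which no setting called, turned to 0.0757 with array weights and ranged from -0.30 to 0.21, positive without T0 replicate 1 (0.2114) and without T2 replicate 2 (0.0569). That between Cox4i2 and Cox4i1 ranged from -0.55 to -0.21.

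Replicate numbers are shared by the stages, but the arrays share only a number: the deviations of same-numbered arrays had a median correlation of -0.007 (-0.19 to 0.124), and 2 of 15 arrays were nearest to their own number. With the replicate block 9 genes were called over T2 minus T0 (Ndufb5 lost its call), 64 at T4 against T3 and 60 at T4 against T2, and the Cox6a2 difference stayed at -3.29. The Cox7a1 and Cox7a2 pair, and the F test on 2 stages, were not run. Dim signals limit Cox8b at T2 and Ppargc1a at T1 and T2, where their arrays lie under the level of 5.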

Other observations

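Glycolytic genes, read over the same span, included 5 of 15 that fell at T2 against T0, with a list median of -0.20. That is 33.3%, against 9.56% of all genes and 12.5% of the brighter ones. Eno3, the muscle enolase, fell by 5.04 (limma adjusted p = 3.42e-08), Pgam2, the muscle phosphoglycerate mutase, by 3.47 (adjusted p = 3.56e-06) and Pfkm, the muscle phosphofructokinase, by 2.26 (adjusted p = 0.000219). Ldhb, the heart form of lactate dehydrogenase, fell by 1.42 (adjusted p = 0.00173), and Pdk1, which inhibits pyruvate dehydrogenase, by 1.29 (adjusted p = 0.0129). Muscle markers fell in 16 of 16 genes over the same span, and their part in these falls was not tested.

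Of 15 mitophagy and dynamics genes, 1 rose and 1 fell at T2 against T0. These shares of 6.67% each lay under those of all genes, of which 9.25% rose and 9.56% fell. Bnip3l, the mitophagy receptor known for clearing mitochondria from maturing red cells, measured 8.58, 8.78 and 8.56 at T2, against 6.88, 6.90 and 6.72 at T0, a rise of 1.81 (adjusted p = 0.032), and was already at 8.79, 8.59 and 8.68 at T1. Erythroid markers rose over the same span in 7 of 7 genes, by a median of 4.87, and their part was not tested. Vdac1, the channel of the outer membrane, fell by 1.33 (adjusted p = 0.00382). Ucp1 measured 5.38, 4.41 and 5.06 at T4, against 3.26, 3.24 and 3.39 at T2, a rise of 1.65 (adjusted p = 0.000141), at the comparison where 652 of 1185 olfactory receptor genes rose as well. Without T4 replicate 1 the rise was 1.43, and 533 of those receptor genes rose.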
